A study of Mus musculus with 2 samples.

Results

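The 7 RNAs described here are Malat1, Neat1, Meg3, Rian, Mirg, Snhg11 and Miat, long noncoding RNAs of the nucleus that were picked by their symbols among the 32285 genes counted in both libraries. Slide-tags snRNA-seq was carried out on a coronal section of the hippocampus of a male C57BL/6J mouse aged 56 days (adult hippocampus) and on a sagittal brain section of a C57BL/6J embryo at embryonic day 14 (E14 brain), which came from a commercial supplier. In this method nuclei in a tissue section take up DNA barcodes released by light from a surface of mapped beads and are then dissociated and sequenced in droplets. Nothing was deleted, added or treated in either group. Each group was 1 library of 1 section, so age, brain region, sex, library and version of the counting software (Cell Ranger) cannot be told apart. All intervals given are 95% counting intervals with no measure of the spread between animals. They cover counting error only.

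Most long noncoding RNAs of this kind stay where they are made. Malat1 gathers in nuclear speckles, bodies rich in splicing factors, while Neat1 is the scaffold on which paraspeckles assemble. Meg3, Rian and Mirg lie in a row in the imprinted Dlk1-Dio3 region and are transcribed from the maternal chromosome. Rian carries snoRNAs and Mirg carries many microRNAs. Snhg11 is a snoRNA host gene known from neurons, and Miat (also called Gomafu) forms nuclear foci of its own in neural cells. Here nuclei and not whole cells were sequenced.

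In the GRCm38 annotation (mm10, GENCODE vM21), Malat1 (ENSMUSG00000092341) occupies positions 5795690 to 5802672 of chromosome 19, minus strand, and Neat1 (ENSMUSG00000092274) occupies the same strand from 5824708 to 5845478, with a gap of 22.0 kb between them. Meg3 (ENSMUSG00000021268, chromosome 12 from 109541001 to 109571726), Rian (ENSMUSG00000097451, from 109603940 to 109661716) and Mirg (ENSMUSG00000097391, from 109729764 to 109749460) lie on the plus strand and span 208.5 kb in all, with gaps of 32.2 and 68.0 kb. Mirg holds 14 annotated microRNA hairpins, Rian 3 and Meg3 1. Snhg11 (ENSMUSG00000044349) lies on chromosome 2 from 158375638 to 158386145 on the plus strand and is typed as protein coding in that annotation, although it is known as a noncoding host gene. Miat (ENSMUSG00000097767) lies on chromosome 5 from 112213228 to 112229395 on the minus strand. Reads within introns were counted, so for the spliced members a value covers the whole locus.

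The starts of Meg3, Rian, Mirg and Snhg11 are shown because the levels of these 4 RNAs were correlated across the classes described further on. Their pairs had a Pearson r of 0.94 to 0.98 over the adult classes. At E14 it ran from 0.73 (Mirg with Snhg11) to 0.96. Miat, not shown, correlated with Meg3 at 0.90 in the adult and 0.50 at E14. The windows run from 250 bases before to 50 bases after the RefSeq start (GRCm38.p6), all on the plus strand, 5′ to 3′. Capitals mark the TATA box TATAAA and the cAMP response element half-site TGACG on either strand.
Meg3, chr12:109540746-109541045: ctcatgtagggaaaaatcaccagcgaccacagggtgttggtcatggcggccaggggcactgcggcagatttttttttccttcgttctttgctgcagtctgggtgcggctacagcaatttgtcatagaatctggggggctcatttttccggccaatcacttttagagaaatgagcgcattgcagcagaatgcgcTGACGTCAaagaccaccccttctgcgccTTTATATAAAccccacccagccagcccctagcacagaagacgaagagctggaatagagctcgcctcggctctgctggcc
Rian, chr12:109603695-109603994: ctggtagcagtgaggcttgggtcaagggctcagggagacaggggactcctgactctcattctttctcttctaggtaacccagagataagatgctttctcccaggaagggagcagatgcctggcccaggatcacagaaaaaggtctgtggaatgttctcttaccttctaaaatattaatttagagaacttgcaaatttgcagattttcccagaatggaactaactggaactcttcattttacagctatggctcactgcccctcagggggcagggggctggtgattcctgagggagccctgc
Mirg, chr12:109734731-109735030: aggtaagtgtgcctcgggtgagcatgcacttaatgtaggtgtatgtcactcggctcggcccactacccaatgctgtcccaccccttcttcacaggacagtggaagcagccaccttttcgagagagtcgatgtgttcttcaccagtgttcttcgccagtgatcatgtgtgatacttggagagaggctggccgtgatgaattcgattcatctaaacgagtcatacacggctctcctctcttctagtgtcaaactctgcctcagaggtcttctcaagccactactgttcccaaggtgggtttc
Snhg11, chr2:158375463-158375762: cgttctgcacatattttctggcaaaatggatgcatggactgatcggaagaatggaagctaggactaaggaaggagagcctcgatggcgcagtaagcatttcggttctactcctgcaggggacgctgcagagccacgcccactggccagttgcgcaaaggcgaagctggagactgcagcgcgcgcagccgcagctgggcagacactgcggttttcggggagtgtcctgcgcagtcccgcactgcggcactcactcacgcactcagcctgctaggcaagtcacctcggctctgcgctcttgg
Of the 4 windows, that of Meg3 held both motifs and the other 3 held neither. RefSeq gives Meg3 a second start, whose window (chr12:109545148-109545447) is not shown and held neither TATAAA nor TGACGTCA. The Meg3 match was the full element TGACGTCA, in which the half-site occurs on both strands, and it was found in 1.79% of 32851 RefSeq windows of the same length. TGACG was found in 20.8% and TATAAA in 13.6% of those windows. The RefSeq start of Mirg lies inside the longer GENCODE gene. Rian had 0 CpG dinucleotides in its window against 21 in Snhg11, where the median over all windows was 7. The motifs are descriptions of these letters and do not show that a factor was bound.

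A nucleus was kept when it had 500 UMIs or more and a mitochondrial share below 5%, which left 1609 of 1661 barcodes from the adult hippocampus (median of 6607 UMIs) and 9036 of 9037 from the E14 brain (median of 4204). Nuclei were placed in classes by the UMIs of lists of 8 markers, or of 10 neuron-wide genes for the E14 neurons that no other list claimed (1578 nuclei). None of these genes is 1 of the 7 RNAs, and each class is named after its list as "-like". The adult section gave 731 neuron-like nuclei in 5 classes, 372 glia-like nuclei in 4 classes and 36 endothelial-like nuclei. The neurons were 173 CA1, 35 CA3, 404 dentate granule, 32 inhibitory and 87 thalamic-like nuclei, so the section labelled hippocampus also held neurons with thalamic markers. The E14 section gave 3654 neuron-like nuclei in 7 classes, 310 radial glia-like and 108 intermediate progenitor-like nuclei, and 5 classes of other cells. No class was given to 20.4% of adult and 51.2% of E14 nuclei, and 136 and 650 nuclei with markers of 2 lists were set aside as mixed. The 2 libraries shared 1 barcode sequence. Levels are given in CPM, the UMIs a gene had in all nuclei of a class for every 1000000 UMIs of those nuclei.

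Malat1 was abundant in every class and did not separate neurons from glia. It made up 5.51% of all UMIs of the adult hippocampus and 3.56% of those of the E14 brain. In the adult classes its level was highest in CA3-like nuclei, at 92913 CPM, and lowest in microglia-like nuclei, at 24996 CPM. CA1-like neurons (65317 CPM) and oligodendrocyte-like nuclei (65309 CPM) did not differ beyond counting error. Thalamic-like neurons (30918 CPM) likewise stood beside endothelial-like nuclei (31243 CPM), so the order of classes cut across neurons and glia. At E14 the range was narrower, from 43192 CPM in hypothalamic-like neurons to 24080 in radial glia-like nuclei. Choroid plexus-like nuclei (42948 CPM) reached the level of the cortical excitatory-like neurons (42840 CPM). Single nuclei of a class varied as well. In CA3-like nuclei the 10th and 90th percentiles of Malat1 were 70250 and 121907 CPM, and in thalamic-like nuclei of the adult section they were 1237 and 39661 CPM.

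**Figure D1:**
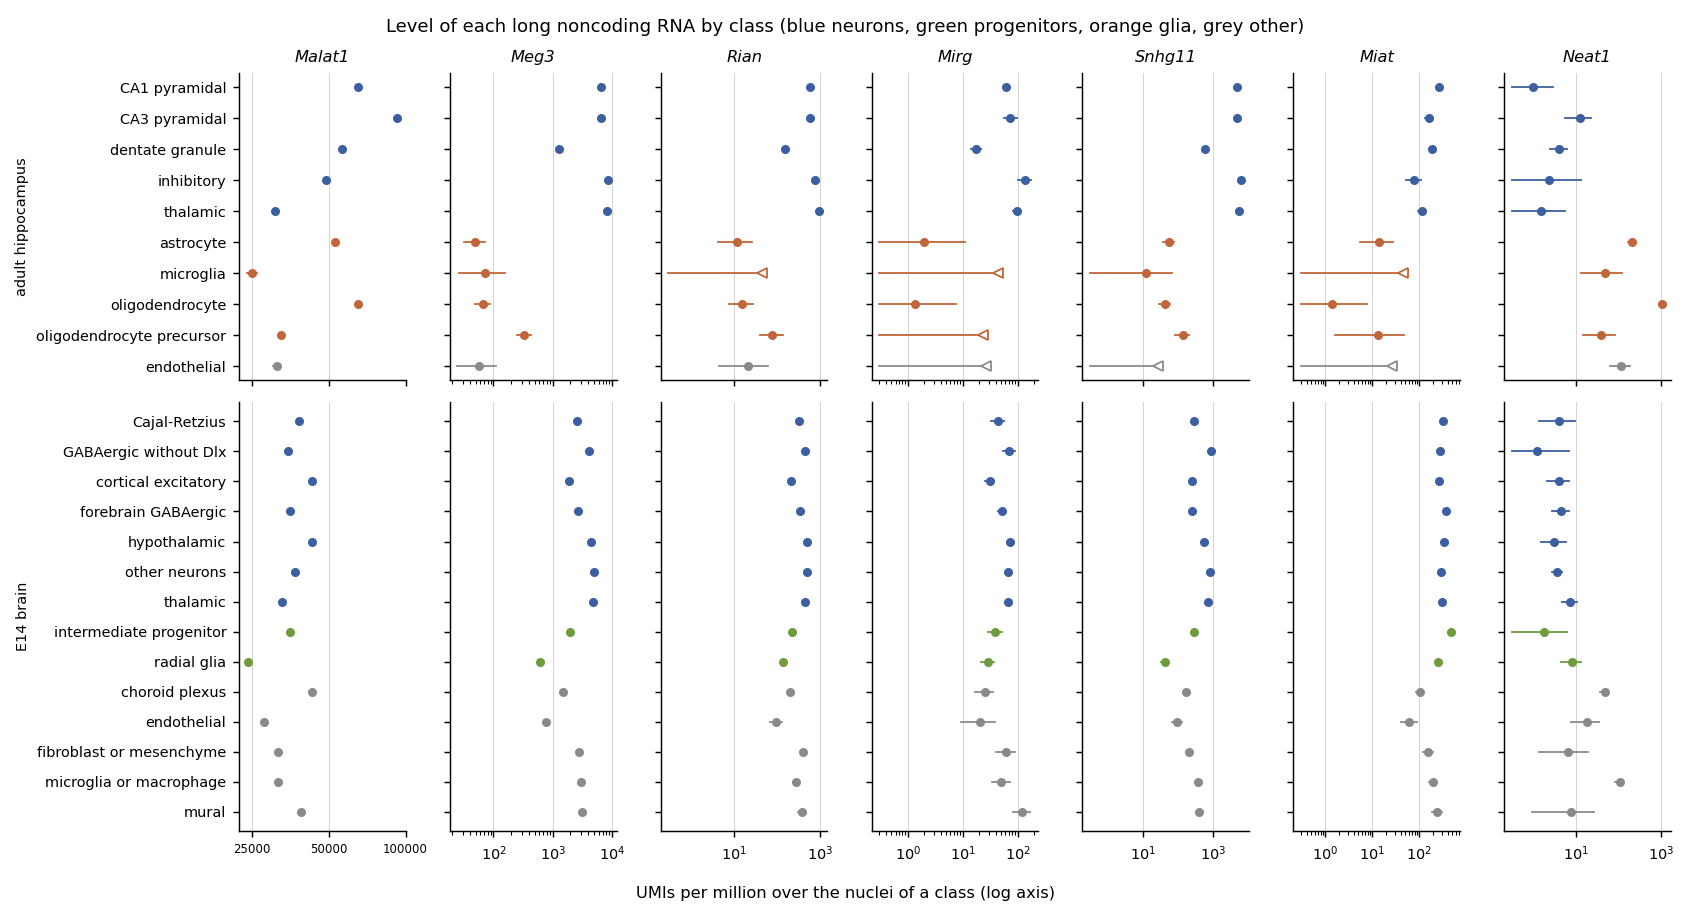
Level of each RNA in each class in CPM (log axes), with the adult hippocampus above and the E14 brain below. Points are classes with bars for the 95% counting interval, and open triangles give the upper limit for a class with 0 UMIs. Malat1 spans 24996 to 92913 CPM in the adult classes, whereas Neat1 reaches 1069 in oligodendrocyte-like nuclei and 0.969 in CA1-like neurons.

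Neat1 showed the opposite picture to the neuronal members, with nearly all of its adult UMIs outside neurons. Oligodendrocyte-like nuclei held 785 Neat1 UMIs, or 1069 CPM (996 to 1147), and 79.2% of them had at least 1 UMI. The median single oligodendrocyte-like nucleus had 917 CPM, with quartiles of 310 and 1766. Astrocyte-like nuclei followed at 205 CPM, then endothelial-like (114), microglia-like (47.8) and oligodendrocyte precursor-like nuclei (38.8). The level was 6.98 times higher in oligodendrocyte-like nuclei than in the other adult glia (1069 against 153 CPM, 5.73 to 8.56), where Malat1 was 1.43 times higher. Adult neurons held almost none of it. Their levels ran from 12.2 CPM in CA3-like nuclei, on 9 UMIs, to 0.969 in CA1-like nuclei.

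The E14 section had no oligodendrocyte-like class and little Neat1. Its highest level there was 107 CPM in microglia or macrophage-like nuclei, on 67 UMIs, and choroid plexus-like nuclei had 47.7 CPM. Endothelial-like nuclei had 18.1, radial glia-like nuclei 7.90 and the remaining E14 classes between 1.21 and 7.40 CPM. The immune and choroid plexus classes thus stood above the E14 neurons, while most neighbouring classes below them did not differ beyond counting error. Endothelial-like nuclei had 6.31 times more Neat1 in the adult than in the E14 section (2.55 to 17.0).

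Meg3, Rian and Mirg, the 3 RNAs of the Dlk1-Dio3 region, had the same order of adult classes in outline, with inhibitory and thalamic-like neurons above the pyramidal classes and dentate granule-like neurons below them. For Mirg, thalamic-like and CA3-like neurons did not differ beyond counting error. Meg3 stood at 8721 CPM in inhibitory-like and 8196 in thalamic-like neurons. It stood at 6579 in CA3-like and 6557 in CA1-like neurons, which did not differ beyond counting error, and at 1286 in dentate granule-like neurons. All 5 neuron classes lay above every glial class. Oligodendrocyte precursor-like nuclei came next at 330 CPM (246 to 434), and microglia, oligodendrocyte, endothelial and astrocyte-like nuclei lay between 48.8 and 71.7 CPM with overlapping intervals.

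Rian followed that order at a smaller number of UMIs. It stood at 921 CPM in thalamic-like, 751 in inhibitory-like, 575 in CA3-like, 567 in CA1-like and 155 in dentate granule-like neurons. Oligodendrocyte precursor-like nuclei had 77.7 CPM, the other glia at most 15.0, and microglia-like nuclei had 0 UMIs, which allows a level of up to 44.1 CPM at the upper 95% limit. Mirg stood at 135 CPM (102 to 174) in inhibitory-like and 98.0 (81.9 to 116) in thalamic-like neurons. It stood at 74.4 (56.1 to 96.9) in CA3-like, 62.6 (54.1 to 72.1) in CA1-like and 17.5 (14.1 to 21.4) in dentate granule-like neurons. Neighbours in this order above the dentate granule-like class did not differ beyond counting error. Only 2 Mirg UMIs were found in glia, 1 in an astrocyte-like and 1 in an oligodendrocyte-like nucleus.

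Snhg11 had the same profile although it lies on another chromosome. Its level was 6364 CPM in inhibitory-like, 5695 in thalamic-like, 5043 in CA3-like, 4746 in CA1-like and 598 in dentate granule-like neurons. Oligodendrocyte precursor-like nuclei had 136 CPM, and the other glia had between 11.9 and 54.7. No UMI of it was found in endothelial-like nuclei, with an upper limit of 26.3 CPM.

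Miat was also neuronal in the adult section but ordered the neurons differently. CA1-like neurons had 265 CPM, dentate granule-like 185, CA3-like 162, thalamic-like 113 and inhibitory-like 76.7. The 2 classes with the most Meg3, Rian, Mirg and Snhg11 therefore had the least Miat among neurons. Astrocyte-like nuclei had 13.7 CPM, oligodendrocyte precursor-like nuclei 12.9 and oligodendrocyte-like nuclei 1.36, while endothelial and microglia-like nuclei had 0 UMIs.

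Summed over classes, 5 of the 7 RNAs were at least 2-fold higher in adult neurons than in glia, where 19.3% of 13027 genes were, and 1 was at least 2-fold lower, where 19.8% were. Meg3 was at 4293 CPM in neurons and 88.3 in glia, a ratio of 48.6 (41.0 to 58.2). Snhg11 had a ratio of 53.8 (2938 against 54.6 CPM, 43.3 to 67.8) and Rian one of 21.4 (419 against 19.5, 14.9 to 32.1). The 3 ratios were far above the median over all genes of 0.914. Miat was 28.7 times higher in neurons (193 against 6.74 CPM, 15.6 to 59.9), on 10 glial UMIs. Mirg was 36.2 times higher (48.8 against 1.35 CPM), with an interval of 9.97 to 300 on its 2 glial UMIs. Malat1 differed little, with a ratio of 1.05 (58088 against 55323 CPM, 1.04 to 1.06). Neat1 was 183-fold lower in neurons (3.31 against 606 CPM, 131 to 263). When the 118 adult nuclei with neuron-wide genes alone were added to the neurons, its ratio was 0.0146.

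The contrast held in single nuclei at equal depth. After each nucleus was thinned to 1000 UMIs, leaving out 17 shallower neurons and 19 shallower glia, Meg3 was found in 80.4% of neurons and 5.38% of glia (96.2% and 15.6% unthinned). Snhg11 was found in 61.5% and 3.12% (87.4% and 11.0% unthinned) and Rian in 26.6% and 2.27% (79.6% and 5.11%). Miat was found in 16.1% of thinned neurons and 0.850% of glia (78.4% and 2.69%). Mirg was found in 4.06% of thinned neurons and in 0 of 353 glia, with an upper limit of 1.04% (36.4% and 0.538% unthinned). For Neat1 the shares were 0.280% of neurons and 40.8% of glia (3.97% and 61.0%), and Malat1 was found in 99.6% and 99.2%.

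Free RNA in the droplets can put neuronal UMIs into glial nuclei, so Meg3 was set against the summed UMIs of 8 neuronal genes (Snap25, Syt1, Rbfox3, Stmn2, Camk2a, Nrgn, Sv2b and Grin2a). The ratio of Meg3 to these was 0.145 to 1.41 in adult neuron classes, 0.0199 in astrocyte-like, 0.181 in oligodendrocyte-like and 0.209 in oligodendrocyte precursor-like nuclei. The share of the low glial Meg3 that came from free RNA was not tested.

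**Figure D2:**
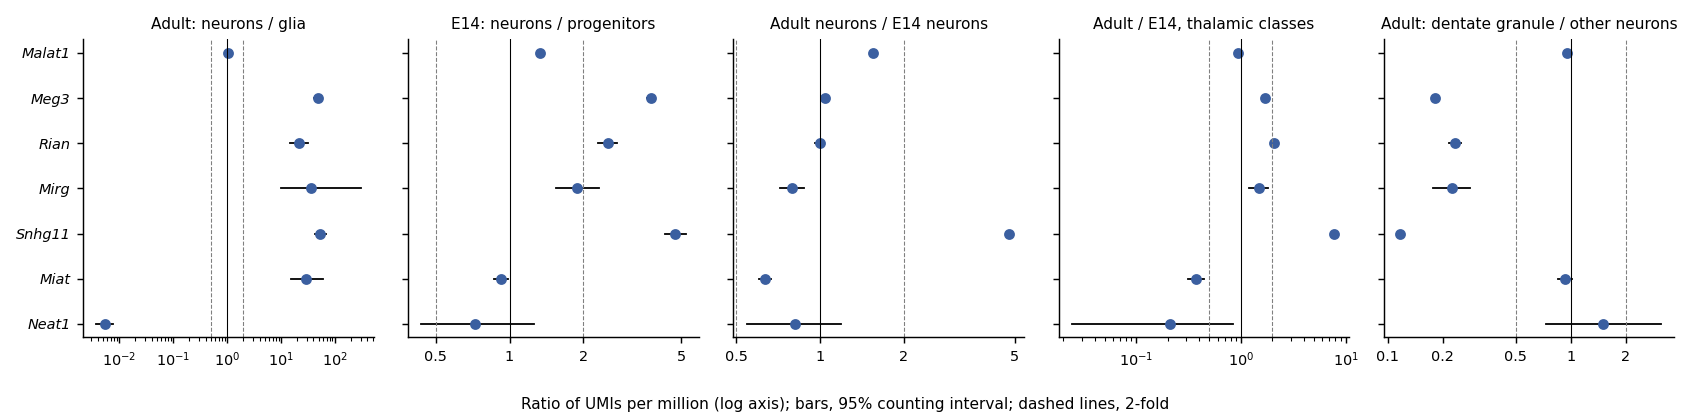
Ratio of CPM for each RNA (rows) in 5 comparisons (panels, log axes), with 95% counting intervals as bars, a solid line at 1 and dashed lines at 2-fold. Meg3 lies at 48.6 in adult neurons over glia and at 3.76 in E14 neurons over progenitors, whereas Neat1 lies far to the left in the adult comparison.

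In the E14 brain, 3 of the 7 RNAs were at least 2-fold higher in neurons than in progenitors, where 12.9% of 15531 genes were. Snhg11 had the largest ratio of the 7, at 4.72 (617 against 131 CPM, 4.29 to 5.22). Meg3 was 3.76 times higher (4138 against 1100 CPM, 3.64 to 3.89) and Rian 2.51 times (421 against 168 CPM, 2.30 to 2.74). Mirg fell short of 2-fold at 1.88 (61.4 against 32.6 CPM, 1.54 to 2.31), and Malat1 was at 1.33 (37381 against 28208 CPM). Miat was not higher in neurons at this stage, with a ratio of 0.921 (305 against 331 CPM, 0.864 to 0.983). This direction turned when radial glia-like nuclei alone were the progenitors (1.20) and, narrowly, as a mean over nuclei (1.02). Neat1 was too sparse for a direction (0.721, 0.438 to 1.26). The median ratio over all genes was 0.880. With radial glia-like nuclei alone as the progenitors the ratio rose to 6.80 for Meg3 and 14.7 for Snhg11.

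Thinning to 1000 UMIs, over 3613 neurons and 409 progenitors, gave Meg3 in 87.3% against 33.7% and Snhg11 in 36.4% against 5.38%. Rian was found in 30.3% against 12.0% and Mirg in 5.54% against 2.69%. The shares for Miat were alike at this depth, at 27.8% and 27.6%. They were not alike at 2000 UMIs, with 46.7% of neurons (45.1 to 48.4) against 37.2% of progenitors (32.3 to 42.3). Unthinned, the Miat shares were 77.6% and 57.7%.

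The 2 progenitor classes also differed from each other. Intermediate progenitor-like nuclei, which carry the markers of cells between radial glia and neurons, had Meg3 at 1957 CPM against 608 CPM in radial glia-like nuclei, a ratio of 3.22 (3.00 to 3.45). Snhg11 was 6.79 times higher in them (285 against 42.0 CPM, 5.34 to 8.73), and these were the 2 members at least 2-fold higher, where 7.20% of 9131 genes were. Miat was 1.83 times higher (464 against 254 CPM, 1.62 to 2.07), Rian 1.65, Malat1 1.47 and Mirg 1.38 times. Its level of 464 CPM made the intermediate progenitor-like class the highest of all classes for Miat in either section.

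From intermediate progenitor-like nuclei to E14 cortical excitatory-like neurons, Meg3 (ratio 0.956) and Snhg11 (0.874) did not go up further, whereas Miat was lower (0.571, 0.512 to 0.638). Depth moved with these values. In the shallowest, middle and deepest of 3 equal groups of the intermediate progenitor-like nuclei, Meg3 was at 433, 2067 and 2118 CPM, Snhg11 at 28.9, 232 and 332 CPM and Miat at 876, 568 and 383 CPM. In the same groups of the radial glia-like nuclei Meg3 was at 419, 525 and 663 CPM, Snhg11 at 36.0, 17.0 and 50.3 CPM and Miat at 153, 241 and 274 CPM. The shallowest groups of the 2 classes were thus close for Meg3 and Snhg11, and the higher levels were measured in the middle and deepest groups. In the cortical excitatory-like nuclei the 3 groups had Meg3 at 703, 1003 and 2309 CPM. The part of depth in the comparison of these classes was not tested.

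Among the E14 neurons Meg3 was highest in the neurons of the neuron-wide list (5001 CPM), thalamic-like (4787) and hypothalamic-like neurons (4432) and lowest in cortical excitatory-like neurons (1870). The hypothalamic-like class rested on 3 of its 8 markers. Snhg11 was highest in GABAergic-like neurons without Dlx genes (870 CPM) and lowest in cortical excitatory-like (249) and forebrain GABAergic-like neurons (251). For both RNAs the 3 lowest neuron classes were the cortical excitatory, forebrain GABAergic and Cajal-Retzius-like neurons, the last at 2566 CPM for Meg3 and 296 CPM for Snhg11.

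Rian and Mirg kept close to that order of the E14 neurons. Rian stood between 440 and 492 CPM in the hypothalamic, thalamic and GABAergic-like neurons without Dlx and in the neurons of the neuron-wide list, whose neighbours in the order did not differ beyond counting error. It was at 331 CPM in forebrain GABAergic-like, 316 in Cajal-Retzius-like and 214 in cortical excitatory-like neurons. Mirg stood between 66.4 and 74.0 CPM in the first 4 of these classes, at 51.4 and 43.7 CPM in the next pair and at 31.1 CPM in cortical excitatory-like neurons. Cortical excitatory-like neurons thus had the lowest level of the neuron classes for both.

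Miat again had another order at E14. After the intermediate progenitor-like nuclei came forebrain GABAergic-like neurons at 374 CPM, a class low in Meg3 and Snhg11, and hypothalamic-like neurons at 341 CPM. The other 5 neuron classes lay between 265 and 322 CPM and radial glia-like nuclei at 254 CPM, with no neighbours in that order differing beyond counting error. Classes further apart did differ, such as Cajal-Retzius-like (322 CPM, 291 to 355) and cortical excitatory-like neurons (265 CPM, 247 to 284). Mural-like nuclei (241 CPM) did not differ from radial glia-like nuclei beyond counting error. Lower levels were measured in microglia or macrophage-like (191 CPM), fibroblast or mesenchyme-like (152 CPM), choroid plexus-like (104 CPM) and endothelial-like nuclei (61.0 CPM). In intermediate progenitor-like nuclei 91.7% had at least 1 Miat UMI, and the median nucleus was at 514 CPM.

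E14 cells outside the neural lineage also held the Dlk1-Dio3 RNAs. Meg3 was at 3123 CPM in mural-like, 3035 in microglia or macrophage-like and 2796 in fibroblast or mesenchyme-like nuclei, all above the 608 of radial glia-like nuclei. Mirg was highest of all E14 classes in the 20 mural-like nuclei, at 122 CPM. In the microglia or macrophage-like class, however, the median nucleus had Meg3 at 384 CPM, and the shallowest, middle and deepest of 3 equal groups had 229, 1434 and 3735. Its Meg3 UMIs stood in a ratio of 1.94 to the UMIs of the 8 neuronal genes, against 0.955 to 1.75 in the E14 neuron classes. In mural-like nuclei that ratio was 1.90, and the 8 genes stood at 1643 CPM, against 1561 CPM in the microglia or macrophage-like class. In fibroblast or mesenchyme-like nuclei the ratio was 3.46, with the 8 genes at 808 CPM. Free RNA or a second nucleus in the droplets of these classes, deep ones included, was not tested. The adult microglia-like nuclei had 0.0236 of the E14 level of Meg3 (0.00866 to 0.0515) and the adult endothelial-like nuclei 0.0751. For the former the sum over the E14 class was set by its deep droplets. The adult microglia-like nuclei (71.7 CPM) had a median of 2056 UMIs, near the 1952 of the shallowest E14 group at 229 CPM. The E14 class covers microglia or macrophages, so the 2 classes are not matched in kind.

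Set against the 8 neuronal genes, Meg3 stood at 1.67 in radial glia-like nuclei, within the range of 0.955 to 1.75 in the E14 neuron classes. Rian stood at 0.374 against 0.109 to 0.190, Mirg at 0.0788 against 0.0159 to 0.0295 and Miat at 0.698 against 0.0852 to 0.186, all above the neurons. For Snhg11 the radial glia-like value (0.115) was just under the range of the neurons (0.124 to 0.366). The part of free RNA in these values was not tested.

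Between adult and E14 neurons, 1 of the 7 RNAs was at least 2-fold higher in the adult, where 15.7% of 16223 genes were. This was Snhg11, at 2938 against 617 CPM (ratio 4.76, 4.68 to 4.85). Meg3 (1.04) and Rian (0.995) were nearly level between the sections. Malat1 was 1.55 times higher in adult neurons (58088 against 37381 CPM), whereas Mirg was at 0.794 (0.720 to 0.875) and Miat at 0.634 of the E14 level. The median over all genes was 0.879.

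This near-equality of Meg3 and Rian depended on which neurons were summed. The thalamic-like class was the neuron class named alike in both sections. There Meg3 was 1.71 times higher in the adult (8196 against 4787 CPM, 1.67 to 1.75), Rian 2.09 times (921 against 440 CPM, 1.94 to 2.25) and Snhg11 7.76 times (5695 against 734 CPM, 7.43 to 8.10). Snhg11 and Rian were the 2 members at least 2-fold higher in that class, where 14.2% of 10426 genes were. Mirg was 1.48 times higher and Malat1 was level at 0.942, so both changed direction against the sum of all neurons. Miat was lower in both views, here at 0.373 (113 against 303 CPM). In the adult thalamic-like class 25.3% of nuclei had under 1.5% Malat1, against 1.66% at E14, and without those droplets the ratios were 1.76 for Meg3, 2.13 for Rian, 8.01 for Snhg11 and 0.971 for Malat1.

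Dentate granule-like neurons made up more than any other class of adult neurons and set the sum. Compared with the other 327 adult neurons, Snhg11 was 8.58-fold lower in them (598 against 5136 CPM, 8.27 to 8.91) and Meg3 5.53-fold lower (1286 against 7117 CPM, 5.39 to 5.68). Mirg was 4.47-fold lower (17.5 against 78.2 CPM, 3.56 to 5.66) and Rian 4.30-fold lower. In all, 4 of 7 RNAs were at least 2-fold lower, where 10.1% of 12192 genes were and the median ratio was 1.03. Malat1 (0.951) and Miat (0.924) were close to level. Rtl1, the imprinted gene transcribed from the other strand between Meg3 and Rian, was 4.73-fold lower as well (16.1 against 76.4 CPM, 3.74 to 6.04).

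The low level was shared by dentate granule-like nuclei rather than set by a few of them. Their median nucleus had Meg3 at 1219 CPM, against 6414 in CA1-like nuclei, and 98.3% had at least 1 Meg3 UMI. At 1000 UMIs a nucleus, Meg3 was found in 66.0% of dentate granule-like and 95.3% of CA1-like nuclei, and Snhg11 in 41.0% and 94.1%. Dentate granule-like nuclei were shallower (median of 11254 UMIs against 16757 in the other neurons). Within them, the shallowest, middle and deepest of 3 equal groups had Meg3 at 1530, 1298 and 1208 CPM.

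The genes whose levels followed a member most closely across the 10 adult and 14 E14 classes, among 9402 genes, were partly the members themselves. For Meg3 they were B830012L14Rik (Pearson r of 0.99 in the adult and 0.95 at E14), Rian (0.98 and 0.96) and Snhg11 (0.98 and 0.96). For Rian they were Rtl1 (0.98 and 0.97), B830012L14Rik (0.98 and 0.96) and Meg3. For Mirg they were B830012L14Rik (0.97 and 0.91), Rtl1 (0.96 and 0.89) and Rian (0.94 and 0.86). Both Rtl1 (chromosome 12 from 109589193 to 109600330, minus strand) and B830012L14Rik (from 109695586 to 109702587, plus strand) lie between the start of Meg3 and the end of Mirg. Snhg11 was followed by Meg3, Cyp4x1 (0.93 and 0.94) and the imprinted ubiquitin ligase gene Ube3a (0.93 and 0.96).

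Miat was followed by Kalrn (0.94 and 0.93), Rnf165 (0.93 and 0.91) and Lrp11 (0.95 and 0.89). For Neat1 the closest were Scrn3 (0.81 and 0.87), Stxbp3 (0.87 and 0.78) and Lamp1 (0.94 and 0.77), the last a gene of the lysosomal membrane. Malat1 had the loosest followers, Magi2 (0.72 and 0.68), St8sia3 (0.70 and 0.69) and Gm36975 (0.87 and 0.67). The classes of a section share a library and free RNA, and these correlations are descriptions.

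Within a class, at 5000 UMIs a nucleus, Meg3 and Snhg11 correlated over nuclei with an r of 0.43 in 154 CA1-like and 0.37 in 376 dentate granule-like nuclei. Meg3 and Rian correlated with an r of 0.16 in the CA1-like nuclei, 0.33 in 272 E14 thalamic-like nuclei and 0.45 in 975 E14 neurons of the neuron-wide list. Malat1 and Meg3 had an r of 0.26 in CA1-like nuclei and -0.05 in those E14 neurons, so no common direction was seen for this pair. All nuclei of a class come from 1 library.

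Other long noncoding RNAs were followed through a list of 24 genes. Of these, 22 had enough UMIs in adult neurons and glia. In neurons 3 were at least 2-fold higher (Mir124a-1hg 23.1, Snhg14 14.1 and Ftx 4.36 times), where 19.3% of all genes were. Another 5 were lower, where 19.8% were, among them Rmst (ratio 0.0265) and Sox2ot (0.0349), and the list median was 0.728. At E14, 4 of 24 were higher in neurons than in progenitors (Peg13 3.40, Snhg14 3.38, Mir124a-1hg 3.27 and Lncpint 2.04 times), where 12.9% of all genes were. Another 8 were lower, where 13.4% were, and the median was 0.674. Mir124a-1hg, the host of a neuronal microRNA, and Snhg14, an imprinted snoRNA host, were on the neuronal side of both. Between adult and E14 neurons, 4 of 23 were higher (Lncpint 41.4, Pvt1 11.5, Oip5os1 3.40 and Ftx 2.62 times), where 15.7% of all genes were. Another 6 were lower, near the 23.6% of all genes that were lower, and the median was 0.880.

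The protein-coding neighbours of Meg3 in the Dlk1-Dio3 region were Begain, Dlk1, Rtl1 and Dio3. In adult neurons over glia, 2 of the 4 had enough UMIs and Rtl1 was higher (35.0 times), and in E14 neurons over progenitors Rtl1 (2.85), Dlk1 (2.31) and Begain (2.05) were higher while Dio3 was at 1.04. Dlk1, the paternally expressed partner at the other end of the region, was all but absent from adult neurons, with 1 UMI, and stood at 80.4 CPM in E14 neurons. Of these 4 genes, 0 were higher and 2 lower in adult than in E14 neurons, where 15.7% and 23.6% of all genes were, with a median of 0.369. Rtl1 was at 0.668 (47.2 against 70.7 CPM).

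The proteins of the bodies in which Neat1 and Malat1 reside were followed through 2 lists. Of 12 paraspeckle proteins, 0 were 2-fold higher or lower in adult neurons than in glia, with a median of 0.914, which was also the median over all genes. Of all genes 19.3% were higher and 19.8% lower there. Of 12 speckle proteins, 0 passed in either direction (median 0.978). At E14 the same 2 lists had 0 and 0 between neurons and progenitors (medians 0.745 and 0.829), where 12.9% of all genes were higher and 13.4% lower. Between adult and E14 neurons 1 paraspeckle protein gene, Nono, was lower (0.397), where 23.6% of all genes were, and the list medians were 0.745 and 0.812.

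Droplets in which Malat1 made up under 1.5% of UMIs were 317 of 1609 in the adult section (19.7%) and 1057 of 9036 at E14 (11.7%). In the adult section they were shallow, with a median of 908 UMIs against 9072 in the rest, and rich in mitochondrial UMIs, with a median of 1.73% against 0.0910%. The limit chose them by Malat1, so its 4109 against 56894 CPM is a description. The other 6 RNAs were each at least 2-fold lower in these droplets, where 22.7% of 13903 genes were and the median ratio was 1.03.

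Meg3 was 7.01-fold lower in them (527 against 3696 CPM, 6.23 to 7.92) and Snhg11 8.93-fold lower (287 against 2568 CPM). Miat had a ratio of 0.0456 on 4 UMIs, and Mirg had 0.0876 on 2 UMIs (0.0106 to 0.318). Neat1 was at 22.8 against 81.0 CPM (0.282, 0.145 to 0.494). Rian had the smallest reduction, at 152 against 362 CPM (0.420, 0.333 to 0.524), with an interval that overlapped that of Neat1. When only droplets under 1500 UMIs were compared, 228 under the limit with 58 over it, Rian was at 97.9 against 85.0 CPM on 18 and 5 UMIs, with overlapping intervals (58.0 to 155 and 27.6 to 198), whereas Meg3 (245 against 901), Snhg11 (130 against 391) and Neat1 (10.9 against 476) stayed lower. Mirg (1 against 0 UMIs) and Miat (2 against 1 UMIs) were too sparse there for a direction. Neat1 was highest in oligodendrocyte-like nuclei, of which only 1.89% lay under the limit. The part of the mix of classes in its difference was not tested. The size of the difference depended on the limits. Among droplets under 1% mitochondrial UMIs the ratio was 0.324 for Meg3 and 0.257 for Snhg11, and at a Malat1 limit of 2% it was 0.618 and 0.574.

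**Figure D3:**
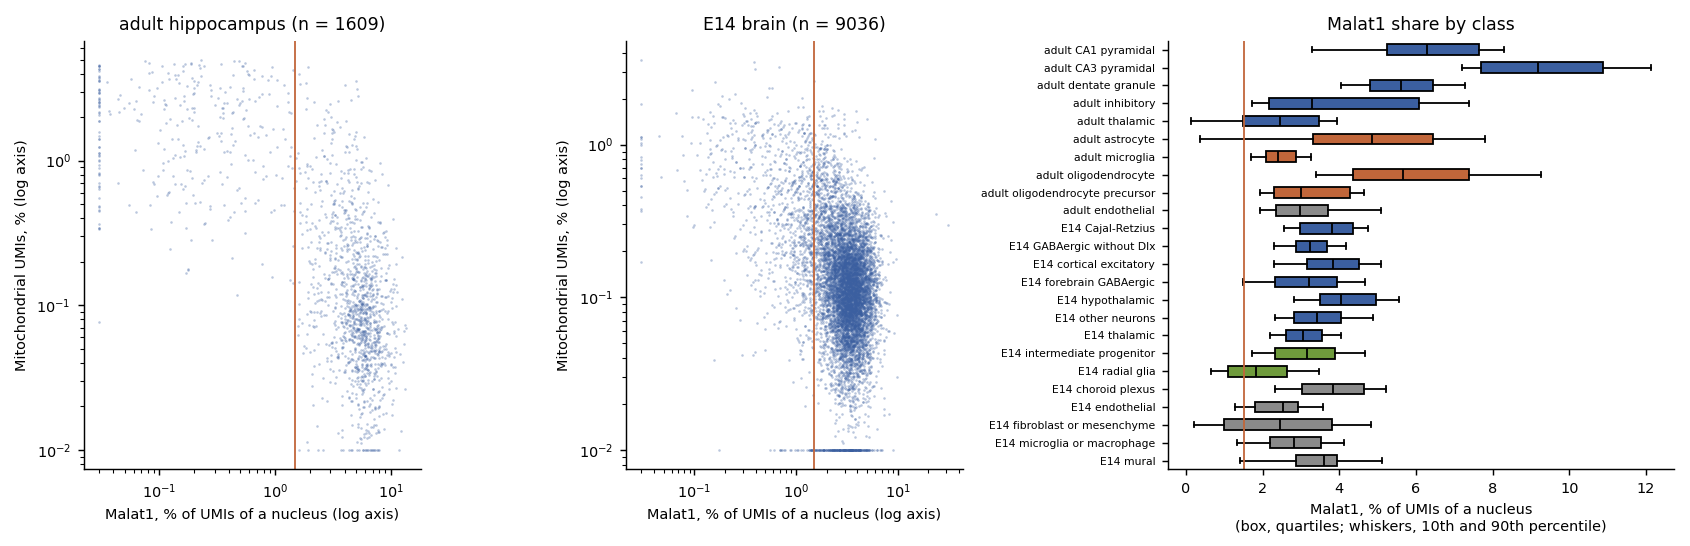
Left and middle, Malat1 share of UMIs against mitochondrial share for each nucleus (log axes, values near 0 drawn at the edge), with the 1.5% limit as a line. Right, Malat1 share by class as boxes (quartiles) with whiskers to the 10th and 90th percentile. Of adult nuclei 19.7% and of E14 nuclei 11.7% lie left of the line, and adult nuclei left of it have more mitochondrial UMIs.

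Meg3 and Snhg11 differed between the 2 bins of Malat1 share on either side of the limit in the adult section. The 24 droplets just inside it, with 1.0 to 1.5% Malat1, had 1030 CPM of Meg3 and 515 CPM of Snhg11. The 46 nuclei just outside it, with 1.5 to 2.0%, had 5595 and 3715 CPM. Meg3 did not rise steadily with Malat1, at 1399 CPM from 0.5 to 1.0% and 2809 CPM from 4.0 to 6.0%. The bins can differ in their mix of classes, and the part of that mix was not tested. Of the 317 droplets 165 were given a class, of which 91 showed neuron-wide genes alone. Within CA1-like nuclei, Meg3 was at 285 CPM in the 12 droplets under the limit, on 6 UMIs, and 6600 in the rest. In dentate granule-like nuclei it was at 192, on 5 UMIs, against 1291, and in thalamic-like nuclei at 2489 against 8435. Lower Meg3 was thus also measured within each of these 3 neuron classes. The droplets were far shallower than the rest, with medians of 1540 against 18561 UMIs (CA1-like), 1378 against 11396 (dentate granule-like) and 1707 against 18405 (thalamic-like). The part of depth was not tested. Astrocyte-like droplets under the limit did not have less Meg3 (97.7 CPM on 2 UMIs against 46.8).

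Messengers moved the other way in the adult droplets. Of 12 cytoplasmic and dendritic messengers 11 were at least 2-fold higher, where 22.1% of all genes were, led by Ddn (12.4 times), a postsynaptic gene whose mRNA enters dendrites, with Apoe at 7.14 and Ppp3ca at 1.12, and the list median was 5.48. Of 22 other long noncoding RNAs 6 were higher, a share near that of all genes, and 13 lower, where 22.7% of all genes were, with a median of 0.259. Those lower included Lncpint (0.0399), Ftx (0.0414) and Kcnq1ot1 (0.112). Those higher were Oip5os1 (6.22), Peg13 (4.68), Gas5 (3.97), Tug1 (3.44), Epb41l4aos (2.77) and Pantr1 (2.10), of which Gas5 is a spliced snoRNA host whose RNA is known in the cytoplasm. Of the paraspeckle proteins 2 were higher and 4 lower (median 0.739), and of the speckle proteins 0 were higher and 2 lower (median 0.910).

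**Figure D4:**
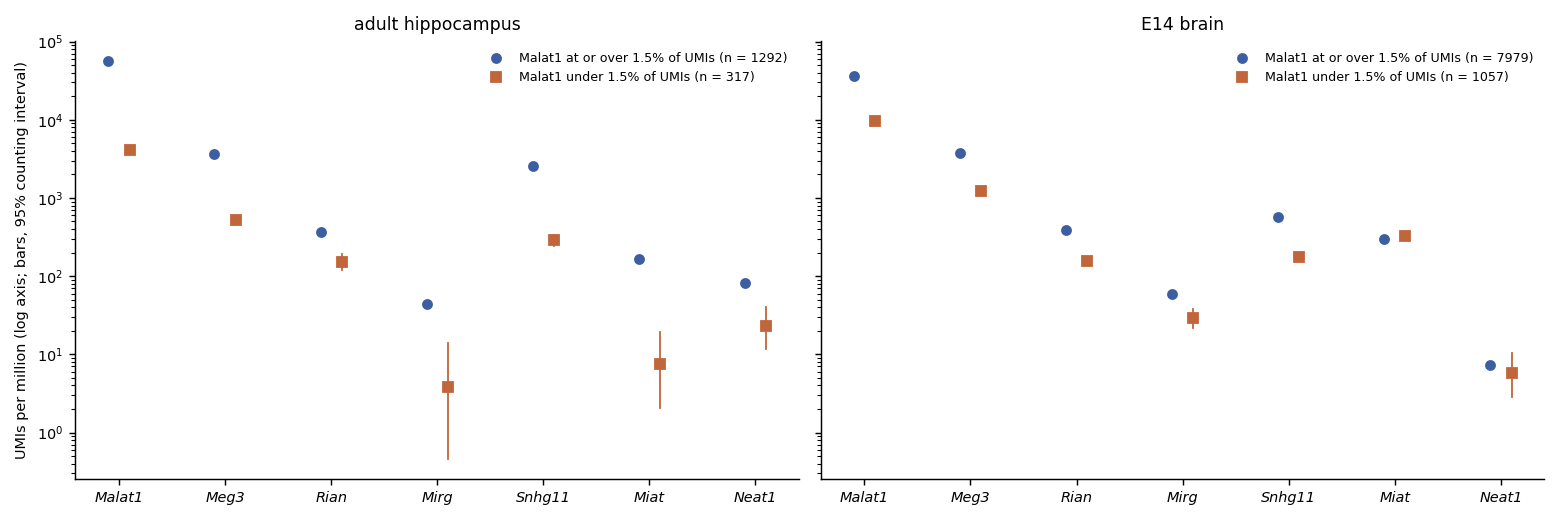
CPM of each RNA (log axis, bars for 95% counting intervals) in nuclei at or over 1.5% Malat1 (circles) and in droplets under it (squares), for the adult hippocampus (left) and the E14 brain (right). In the adult section all 7 RNAs are lower in the droplets under the limit, whereas at E14 Miat is not lower, at 325 against 297 CPM.

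At E14 the droplets under the limit were also shallow (median of 1071 UMIs against 4664), with a median mitochondrial share of 0.347% against 0.113%. Malat1 was at 9718 against 36460 CPM by choice. Of the other 6 RNAs, 4 were at least 2-fold lower, where 7.17% of 17597 genes were and the median ratio was 1.25. Meg3 was at 1230 against 3795 CPM (0.324), Snhg11 at 0.308, Rian at 0.397 and Mirg at 0.486 of the rest. Miat was not lower (325 against 297 CPM, ratio 1.09, 1.01 to 1.19), and Neat1 had too few UMIs for a direction (0.789, 0.391 to 1.43).

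Of the 1057 E14 droplets under the limit only 302 were given a class, and these were spread unevenly over the classes. They were 39.7% of the radial glia-like, 37.2% of the fibroblast or mesenchyme-like and 19.6% of the endothelial-like nuclei, against 10.2% of forebrain GABAergic-like and 1.66% of thalamic-like neurons. Within radial glia-like nuclei the 123 under the limit had nearly the mitochondrial share of the other 187 (medians of 0.169% and 0.141%). They were shallower, with a median of 3065 UMIs against 4742. Meg3 was at 0.382 (0.314 to 0.463) and Snhg11, on 6 UMIs, at 0.274 (0.0977 to 0.624) of the level in those others. Mirg was at 0.942 on 12 UMIs (0.454 to 1.81) and Rian at 0.783 (0.562 to 1.07), too wide for a direction. Miat was 1.34 times higher (1.09 to 1.63).

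The oligo-dT primer of the assay can also prime at runs of A within a transcript, and the members differ in these. Runs of at least 10 A were found 7 times in Meg3, 5 times in Rian, 2 times each in Mirg and Miat, and 1 time each in Malat1 and Snhg11. None was found in Neat1, whose longest run was 7, and 48.5% of 1069 lincRNA genes on the chromosomes of the members had none either. For each kb of gene the runs were 0.228 in Meg3, 0.143 in Malat1, 0.124 in Miat, 0.102 in Mirg, 0.095 in Snhg11 and 0.087 in Rian. Levels are therefore compared between classes for the same RNA and not between RNAs, and the part of such runs in the values was not tested.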

How the data were processed

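Nuclei of 2 sections were profiled by droplet snRNA-seq, with 1 library of each. The deposited values were raw UMI counts per gene and droplet, made by the authors with Cell Ranger 6.1.2 (adult) and 7.0.1 (E14) on mm10 with intronic reads, per the file headers and the study's methods. The methods also name CellBender for the E14 section. The counts used here were whole numbers under Cell Ranger's own header and were taken as made before that step. Barcodes of 500 or more UMIs with a mitochondrial share below 5% were used. Total UMIs were 15346746 in the adult library and 58923882 in the E14 library, and 0 columns belonged to other samples.

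Nuclei joined a class by a list of 8 markers (10 for neuron-wide genes), with at least 3 marker UMIs from at least 2 markers and a posterior of 0.95 under a multinomial profile fitted from the clearest nuclei. The scoring limits were set after marker values were seen. Nuclei with the markers of 2 lists were left out as mixed, and no doublet caller was run. An adult class of 24 nuclei with cortical markers and one of 118 nuclei with neuron-wide genes alone were not used in the comparisons, since the leading genes of the former held a marker of another list and none of its own, and 77.1% of the latter had under 1.5% Malat1. Levels were summed over a class and divided by its UMIs (CPM, for every 1000000 UMIs). Intervals were exact Poisson for a level and exact conditional binomial for ratios and shares, at 95%, and cover counting error only. Counts of genes were made over genes with at least 50 UMIs in the groups compared, with a fold limit of 2, and levels under 3 UMIs were raised to 3 UMIs in these counts of all genes. With 1 library a group no test was run. Named genes were the 7 members, the lists, and for each member the 3 genes with the highest lower correlation of log2(CPM + 10) over classes among genes with at least 200 UMIs a library.

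The lists cover other long noncoding RNAs, Dlk1-Dio3 neighbours, paraspeckle and speckle proteins, cytoplasmic and dendritic messengers, 10 neuron-wide genes, 8 cell cycle genes and 8 neuronal background genes. The last 3 served as checks. In adult neurons over glia 7 of 10 neuron-wide genes were higher (median 5.11), as were 7 of 8 background genes (median 18.9), and in E14 neurons over progenitors 7 of 8 cell cycle genes were lower (median 0.160). The members and lists were chosen with earlier results of these data known. Python 3.11.15, numpy 2.4.6, scipy 1.17.1, pandas 2.3.3 and matplotlib 3.10.9 were used, and the class assignment was checked on simulated nuclei. Alternatives were other depth, mitochondrial, Malat1 and fold limits, gene filters, weightings, denominators and sets of classes.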

Additional observations from a re-analysis of the deposited data

Results flagged for a closer look

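Miat stood 28.7 times higher in neurons than in glia in the adult hippocampus, whereas in the E14 brain its ratio of neurons over progenitors was 0.921. The 2 contrasts pointed in opposite directions, and each interval lay on its own side of 1. The E14 ratio turned to 1.02 as a mean over nuclei and to 1.20 against radial glia-like nuclei alone. The difference between them was not tested, since each section was 1 library and the second group differed in kind (glia in the adult, progenitors at E14).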

How the results depend on the processing

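Recomputed under 19 other settings, 144 of 245 values stayed within the counting interval of the main value (for counts, within 1.5 times), 91 moved beyond it and 10 changed direction, counting only values whose main interval did not hold 1. Rian and Neat1 in adult over E14 neurons, whose intervals did, moved beyond them to the other side of 1 as well, Rian to values from 1.53 to 2.13 under 4 settings and Neat1 to 2.17 with the adult nuclei of neuron-wide genes alone added. The number of RNAs at least 2-fold higher in adult than in E14 neurons, 1 in the main analysis, was 2 with a fold limit of 1.5, with the adult nuclei of neuron-wide genes alone added, in thalamic-like neurons alone, and in these without droplets under 1.5% Malat1. The number at least 2-fold lower in adult droplets with little Malat1, Malat1 included, fell from 7 to 4 at a limit of 2%. The cause was not tested. Changes of direction were as follows. For adult over E14 neurons, Mirg was at 1.34 as a mean of classes, 1.27 without dentate granule-like nuclei, 1.48 in thalamic-like neurons and 1.53 in these without the droplets; Malat1 was at 0.942 and 0.971 in the last pair, and Meg3 was at 0.862 as a mean over nuclei. Miat in E14 neurons over progenitors was at 1.02 as a mean over nuclei and 1.20 against radial glia-like nuclei alone. Rian in the adult droplets was at 1.15 when both groups were under 1500 UMIs.

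The settings on the thalamic-like class, on dentate granule-like nuclei, on radial glia-like nuclei alone and on the adult neuron-wide nuclei were chosen after seeing the data. Without dentate granule-like nuclei the adult over E14 ratio was 1.72 for Meg3, 1.58 for Rian and 8.32 for Snhg11. No paired analysis was possible because each group is 1 library, and no replicate could be left out. Depth limits Mirg in adult glia (2 UMIs) and Neat1 in neurons (36 UMIs in the adult section).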

Other observations

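In 28 oligodendrocyte-like nuclei deep enough to be thinned to 5000 UMIs, of 212 in all, Malat1 and Neat1 had a Pearson r of -0.59 over nuclei, at means of 366 and 5.36 UMIs a nucleus. These 28 come from 1 library and were the deepest of their class. Among the adult neuron-like classes the share of nuclei with under 1.5% Malat1 ran from 0 of 35 CA3-like nuclei to 25.3% of thalamic-like nuclei, and among glia from 1.89% of oligodendrocyte-like to 13.1% of astrocyte-like nuclei. In the thalamic-like class Malat1 was at 14525, 28873 and 33546 CPM in the shallowest, middle and deepest of 3 groups of equal size.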
